A study of Mus musculus with 4 samples.

Results

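The genes described here are the ligands, receptors and neuropilins of the vascular endothelial growth factor (VEGF) system in periosteal cells. They were taken by symbol from the table of expression values, which held all 9 genes of the list (*Vegfa*, *Vegfb*, *Vegfc*, *Pgf*, *Flt1*, *Kdr*, *Flt4*, *Nrp1* and *Nrp2*) among 45802 symbols. Of the 9 genes, 8 had a value in all 4 libraries, as had 14415 genes of the whole table, and *Flt1* was blank in 1 library. Total RNA was sequenced from 2 libraries of PDGFRα reporter+ and 2 libraries of PDGFRα reporter- cells of the mouse periosteum, the connective tissue layer around bone. All animals were male Pdgfrα mT/mG mice, which carry a *Pdgfra*-driven CreER transgene and the mT/mG reporter, and were 9 to 10 weeks old when their hindlimb cells were taken, 14 days after 5 daily doses of tamoxifen at 150 mg/kg. PDGFRα reporter+ cells were those that carried membrane GFP, and PDGFRα reporter- cells those that still carried membrane tdTomato, so that the label records *Pdgfra* promoter activity at the time of tamoxifen. Both populations were negative for CD31, CD45 and Ter119 by sorting, after 1 passage of culture with basic fibroblast growth factor at 10 ng/mL, and each library came from cells pooled from 3 to 6 mice by the sample labels, whereas the methods of the study give a larger number. Stromal markers were present in both populations: *Pdgfra* itself had log2 values of 7.78 and 7.62 in PDGFRα reporter+ cells and of 7.87 and 7.44 in PDGFRα reporter- cells, and the populations overlapped. Among 10 stromal markers, 2 had both PDGFRα reporter+ values above both PDGFRα reporter- values and 0 had both below, compared with 7.59% and 8.10% of all genes. The higher ones were the proteoglycan genes *Lum* (5.96 and 6.04 compared with 4.61 and 3.73) and *Dcn* (7.47 and 8.49 compared with 6.67 and 6.51). *Postn*, the gene of periostin, chosen after its values were seen, had −1.13 and 2.04 compared with 0.14 and 3.04, so that the populations overlapped but PDGFRα reporter+ cells were lower under each number.

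The 4 libraries were named in the table by their population and a number, 2 or 3, and are named that way here, since the sample labels count them as 1 and 2. Values are log2 expression after quantile normalization by the authors. In each library the lower quartile was −1.47, the median 1.48 and the upper quartile 3.00, between a lowest value of −10.07 and a highest of 11.73. Whether values were scaled by transcript length is not given in the sources used here, so that levels are compared between libraries and not between genes. Sums over a list of genes are given on the deposited scale and depend on that scaling. Sequencing depth is unknown, and no counting error can be given. Log2 fold changes are PDGFRα reporter+ means minus PDGFRα reporter- means, given with the standard error (SE), and p-values are from limma. Whether the libraries of a population came from separate cultures is not stated, and p-values then measure only the spread between these libraries.

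VEGF ligands are secreted dimeric growth factors, and their receptors are receptor tyrosine kinases found mainly on endothelial cells. VEGF-A, encoded by *Vegfa*, acts through VEGFR2 (*Kdr*), while VEGFR1 (*Flt1*) binds VEGF-A, VEGF-B and placental growth factor (*Pgf*) and can hold VEGF-A away from VEGFR2. VEGF-C, encoded by *Vegfc*, acts mainly through VEGFR3 (*Flt4*) and drives the growth of lymphatic vessels. The neuropilins *Nrp1* and *Nrp2* are co-receptors for VEGF ligands and also bind class 3 semaphorins. In bone, VEGF-A from skeletal cells guides blood vessel growth during development and repair.

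Promoter sequences are shown for *Vegfc* and *Kdr*, which had the largest differences between populations among the members with a value in all libraries. They are also shown for *Flt1*, whose values lay on the same side as those of *Kdr*. Each covers the 250 bases before a transcription start in the RefSeq annotation of GRCm38.p6, read 5′ to 3′ on the strand of the gene. Capitals mark the GC box GGGCGG or its reverse complement. The *Vegfc* window is chr8:54077282-54077531 on the plus strand, the *Kdr* window chr5:75978456-75978705 on the minus strand and the *Flt1* window chr5:147726012-147726261 on the minus strand.
Vegfc: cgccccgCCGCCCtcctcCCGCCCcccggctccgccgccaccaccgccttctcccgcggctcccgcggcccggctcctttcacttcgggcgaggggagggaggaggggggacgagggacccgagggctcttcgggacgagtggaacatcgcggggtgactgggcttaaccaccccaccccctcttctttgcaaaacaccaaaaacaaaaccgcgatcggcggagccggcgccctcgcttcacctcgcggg
Kdr: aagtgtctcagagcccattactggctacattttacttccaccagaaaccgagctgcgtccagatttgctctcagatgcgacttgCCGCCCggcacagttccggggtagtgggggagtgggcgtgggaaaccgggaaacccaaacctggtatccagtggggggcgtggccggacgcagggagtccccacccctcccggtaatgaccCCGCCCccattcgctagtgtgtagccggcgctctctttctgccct
Flt1: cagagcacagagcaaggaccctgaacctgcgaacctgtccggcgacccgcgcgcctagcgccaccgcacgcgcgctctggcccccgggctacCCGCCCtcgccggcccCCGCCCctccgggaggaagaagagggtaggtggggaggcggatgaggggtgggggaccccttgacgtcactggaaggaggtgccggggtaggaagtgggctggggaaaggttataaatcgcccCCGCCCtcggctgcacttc

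The GC box was found 2 times in the *Vegfc* window, 2 times in the *Kdr* window and 3 times in the *Flt1* window, on either strand and with overlaps counted. Of 32851 windows of the same length in the RefSeq table, 32.7% held it. The AP-1 site TGANTCA and the hypoxia response core ACGTG, searched on both strands, were in none of these 3 windows, and were in 6.75% and 16.6% of all windows. These matches only describe the letters of the windows. In GENCODE M21 on GRCm38, *Vegfc* lies on chromosome 8 from 54077606 to 54187096, *Kdr* on chromosome 5 from 75932827 to 75978458 and *Flt1* on chromosome 5 from 147561604 to 147726011, and no other gene overlaps them. All 9 members are annotated as protein coding.

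Among the ligands, *Vegfc* separated the populations. Its log2 values were 2.33 and 2.50 in PDGFRα reporter+ libraries 2 and 3, and 1.24 and 1.43 in PDGFRα reporter- libraries 2 and 3. Every PDGFRα reporter+ value was above every PDGFRα reporter- value, and the gap between populations was larger than the spread within either. The means were 2.42 ± 0.12 (SD, n = 2) and 1.33 ± 0.14 (SD, n = 2), a log2 fold change of 1.09 (SE 0.20), with PDGFRα reporter+ cells 2.12-fold higher. The difference was 1.10 between the libraries numbered 2 and 1.07 between those numbered 3. In limma its unadjusted p was 0.0038 and its adjusted p was 1, so that it was not called at an adjusted p under 0.05. No member was called, and neither was any gene of the table (0% of 14415). An unadjusted p under 0.05 was found for 2 of 8 members, *Vegfc* and *Kdr*, and for 0.909% of all genes. When limma was given the library number as a block, the adjusted p of *Vegfc* was 0.0437, in a fit that called 1 of 8 members and 0.201% of all genes. It was 0.463 with the block when variances were moderated without a trend, and over all alternatives it ranged from 0.0437 to 1. Of the 10 stromal markers, the fit with the block called 1, *Lum*, with an adjusted p of 0.0121 in limma, or 0.466 without the trend. Since *Vegfc* is among the genes that the study itself singled out from these libraries, its difference is not independent evidence.

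*Vegfa* had log2 values of 5.41 and 5.58 in the PDGFRα reporter+ libraries and of 5.12 and 5.61 in the PDGFRα reporter- libraries. The populations overlapped, with the lowest and the highest value both in PDGFRα reporter- libraries. For *Vegfa* the log2 fold change was 0.12 (SE 0.22, 95% interval −0.46 to 0.71), an unadjusted p of 0.602 in limma. *Vegfb*, a ligand of VEGFR1, had values of 2.57 and 2.56 in the PDGFRα reporter+ libraries and of 2.58 and 3.02 in the PDGFRα reporter- libraries. Both PDGFRα reporter+ values were lower, but the nearest values of the populations were only 0.01 apart, and PDGFRα reporter- library 3 stood above the other 3 libraries. Its log2 fold change was −0.23 (SE 0.21, 95% interval −0.79 to 0.33). *Pgf* had values of −1.84 and −1.38 in the PDGFRα reporter+ libraries and of −2.27 and −1.70 in the PDGFRα reporter- libraries. The populations overlapped, although PDGFRα reporter+ cells had the higher value under each number, by 0.42 and 0.32. The log2 fold change of *Pgf* was 0.37 (SE 0.47, 95% interval −0.88 to 1.62). These intervals leave room for differences in *Pgf* as large as that of *Vegfc*, whereas those of *Vegfa* and *Vegfb* end below it.

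**Figure D1:**
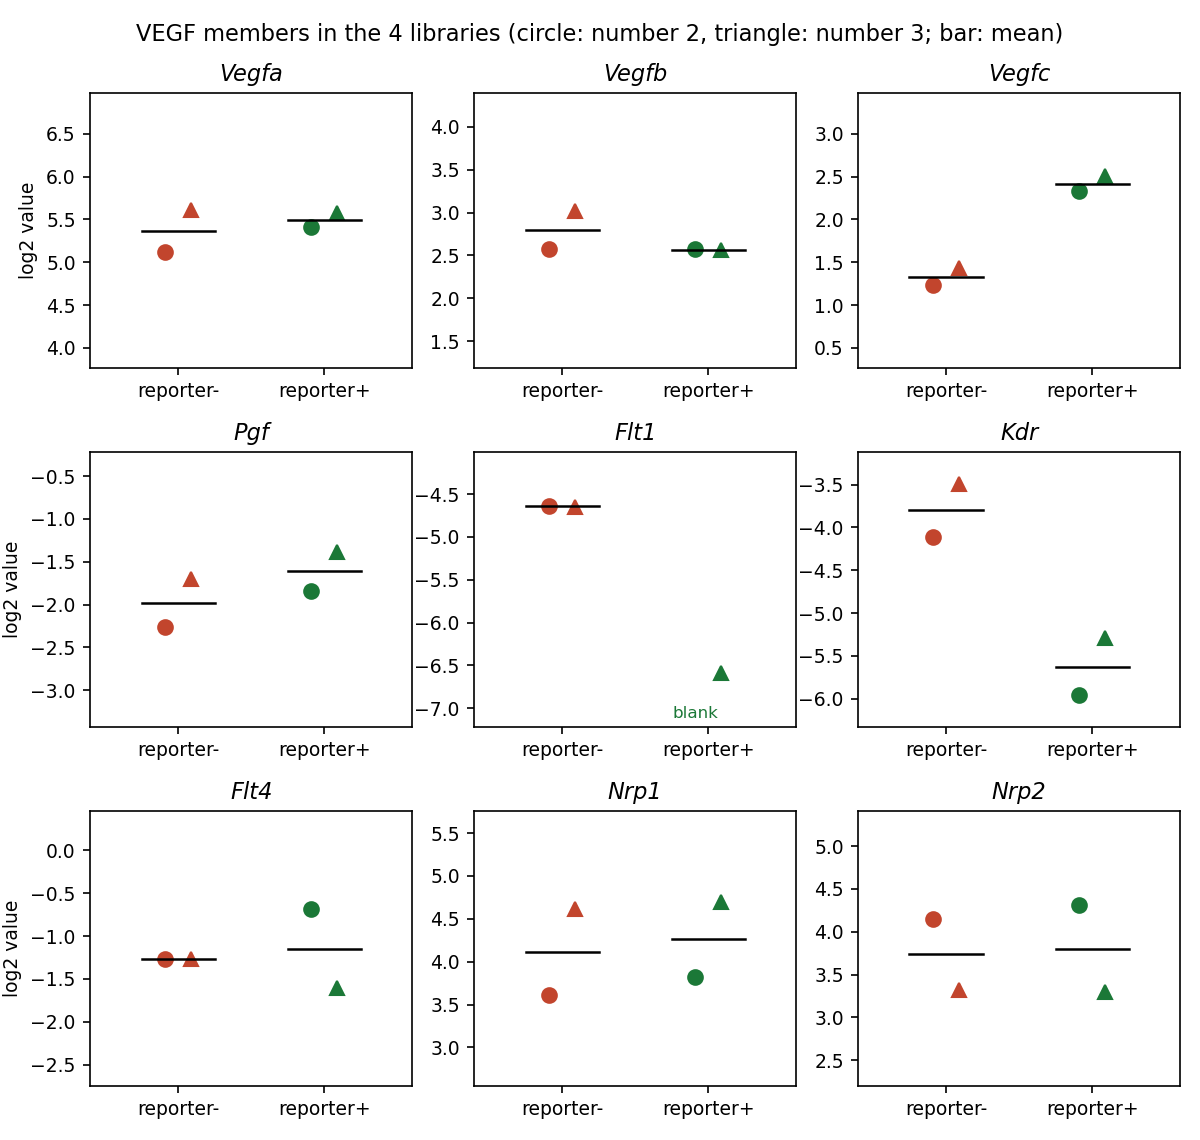
Deposited log2 value of each of the 9 members (y axis, the same span of log2 units in every panel) in PDGFRα reporter- and PDGFRα reporter+ libraries (x axis), with circles for number 2, triangles for number 3 and a bar for the mean of 2 libraries. *Vegfc* sits at 2.33 and 2.50 against 1.24 and 1.43, *Kdr* is lower in PDGFRα reporter+ libraries, *Flt1* is blank in 1 of them, and *Nrp1* and *Nrp2* split by number in both populations.

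The receptors *Kdr* and *Flt1* had values near the bottom of the scale, and those listed for PDGFRα reporter+ libraries were the lower ones. *Kdr* had log2 values of −5.96 and −5.29 in the PDGFRα reporter+ libraries and of −4.11 and −3.49 in the PDGFRα reporter- libraries. The populations did not overlap, and all 4 values were below the lower quartile of their library. The means were −5.62 ± 0.48 (SD, n = 2) and −3.80 ± 0.44 (SD, n = 2), a log2 fold change of −1.82 (SE 0.67), or 3.54-fold higher in PDGFRα reporter- cells. The difference was −1.85 between the libraries numbered 2 and −1.80 between those numbered 3. In limma the unadjusted p was 0.0469 and the adjusted p was 1, and with the block it was 0.548. On the log2(value + 1) scale, the log2 fold change of *Kdr* was −0.07, since its linear values are far below 1. *Flt1* was blank in PDGFRα reporter+ library 2, and its value was −6.59 in PDGFRα reporter+ library 3 and −4.64 and −4.65 in the PDGFRα reporter- libraries. *Flt1* was therefore not fitted, and between the libraries numbered 3 it was lower in PDGFRα reporter+ cells by a log2 difference of −1.94. In these bulk samples, fewer cells of a type and less RNA per cell cannot be told apart.

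Counting the 8 members with all values, 1 (*Vegfc*) had both PDGFRα reporter+ values above both PDGFRα reporter- values, compared with 7.59% of all genes, and 2 (*Vegfb* and *Kdr*) had both below, compared with 8.10% of all genes. *Flt4*, the receptor of VEGF-C, was not among them. Its values were −0.68 and −1.61 in the PDGFRα reporter+ libraries, which bracketed the values of −1.27 and −1.27 in the PDGFRα reporter- libraries. The log2 fold change of *Flt4* was 0.12 (SE 0.48, 95% interval −1.14 to 1.39), and the difference was 0.59 between the libraries numbered 2 and −0.34 between those numbered 3. Over the 8 members the median log2 fold change was 0.12, compared with −0.0035 over all genes tested.

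The neuropilins separated by library number, and their populations overlapped. *Nrp1* (chromosome 8, 128358604 to 128503363) had log2 values of 3.82 in PDGFRα reporter+ library 2 and 3.61 in PDGFRα reporter- library 2, and of 4.70 and 4.61 in the libraries numbered 3. *Nrp2* (chromosome 1, 62703285 to 62818695) went the other way, with values of 4.31 and 4.15 in the libraries numbered 2 and of 3.30 and 3.32 in those numbered 3. For each neuropilin the 2 libraries with the same number were closer to each other than to the other library of their population. The log2 fold change between populations was 0.15 (SE 0.46, 95% interval −1.09 to 1.39) for *Nrp1* and 0.07 (SE 0.46, 95% interval −1.15 to 1.29) for *Nrp2*. In that fit, without the block, the difference between numbers counts as spread within a population. With the library number as a block, the 95% interval was −0.117 to 0.415 for *Nrp1* and −0.209 to 0.344 for *Nrp2*. From number 2 to number 3, *Nrp1* was higher by 0.88 in PDGFRα reporter+ and by 1.01 in PDGFRα reporter- cells, whereas *Nrp2* differed by −1.01 and −0.83. In a limma model with the population and the library number, which was added after the values were seen, the difference of number 3 from number 2 was 0.94 (SE 0.12) for *Nrp1*, with an adjusted p of 0.000831. It was −0.92 (SE 0.12) for *Nrp2*, with an adjusted p of 0.0011. Without a trend of the variance in this model, the adjusted p was 0.0845 for *Nrp1* and 0.0878 for *Nrp2*. These 2 were the members called between numbers, 2 of 8, and 21.3% of all genes were called in the same model, so that the share of members was close to that of the table. What the number stands for, such as a culture or a day, is not stated.

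The other 6 members with all values were not called between numbers. In the same model, number 3 differed from number 2 by 0.33 (SE 0.13, adjusted p 0.0992) for *Vegfa*, by 0.18 (SE 0.15) for *Vegfc*, by 0.21 (SE 0.15) for *Vegfb* and by −0.47 (SE 0.35) for *Flt4*. *Pgf* and *Kdr* were higher in the libraries numbered 3 in both populations, by 0.46 and 0.56 for *Pgf* and by 0.67 and 0.62 for *Kdr* in PDGFRα reporter+ and PDGFRα reporter- cells, respectively. *Nrp1* contains the microRNA gene *Mir1903* on its strand, and *Nrp2* overlaps the antisense gene *Gm29083* and the transcript *Gm37121*. None of these 3 overlapping genes had a value in any library.

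**Figure D2:**
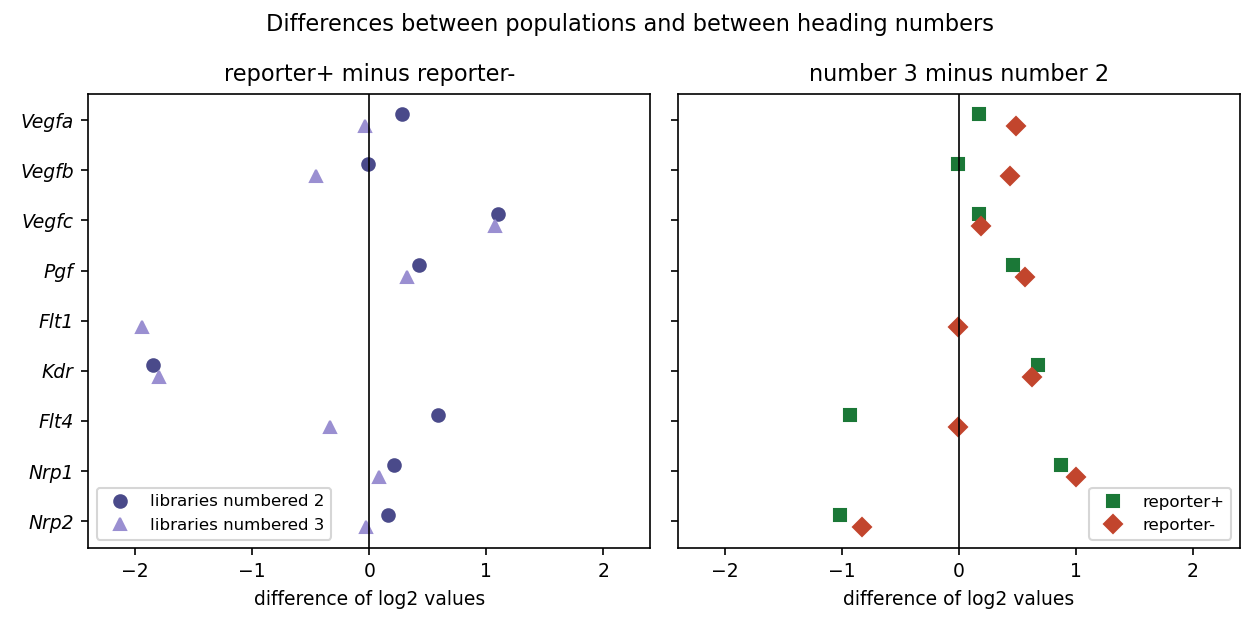
Differences of log2 values (x axis) for the 9 members (y axis), between populations under each library number on the left and between numbers in each population on the right; a point is 1 library minus another, and *Flt1* lacks the points that need its blank library. *Vegfc* lies at 1.10 and 1.07 on the left and *Kdr* at −1.85 and −1.80, while *Nrp1* and *Nrp2* lie near 0 on the left and on opposite sides of 0 on the right.

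*Kdr* and *Flt1* are textbook markers of endothelial cells, and their values are given here beside endothelial and mural cell markers, the latter being genes of pericytes and smooth muscle. Of 11 endothelial markers, 8 had a value in all libraries, of which 3 were lower in both PDGFRα reporter+ libraries (*Pecam1*, *Cdh5* and *Emcn*, the last chosen after its values were seen) and 0 were higher, compared with 8.10% and 7.59% of all genes. *Pecam1*, the gene of CD31, had log2 values of −4.68 and −4.79 in the PDGFRα reporter+ libraries and of −1.99 and −1.11 in the PDGFRα reporter- libraries. *Cdh5*, the gene of VE-cadherin, had −4.75 and −6.40, compared with −1.97 and −0.67. *Robo4* was blank in both PDGFRα reporter+ libraries, and *Tie1* and *Cldn5* were each blank in 1 of them, as *Flt1* was, and these 3 were named after their values were seen. *Tek*, the angiopoietin receptor, overlapped between populations and differed by number, with −3.00 and −2.50 in the libraries numbered 2 and 0.05 and 1.10 in those numbered 3. The linear values of the list summed to log2 values of 2.02 and 1.87 in PDGFRα reporter+ and of 2.42 and 2.79 in PDGFRα reporter- libraries. Of the 11 markers, 10 had a mean below 0, and the other was *Egfl7*, also chosen after its values were seen, with 1.22 and 1.00 compared with 1.01 and 1.29. On the deposited scale most of the sum in every library came from *Egfl7*, *Tek* and *Erg*, whose populations overlapped, so that it does not give the size of the difference in *Pecam1* and *Cdh5*. Of 9 mural cell markers, 4 were lower in both PDGFRα reporter+ libraries and 0 were higher, compared with the same shares of all genes. They were *Notch3*, a receptor that pericytes need (0.98 and 0.83 compared with 1.18 and 1.36), and, chosen after their values were seen, *Myh11*, *Des* and *Mcam*. The mural list summed to 4.22 and 4.90 compared with 5.27 and 5.51. On the same scale most of that sum in every library came from *Acta2*, *Tagln* and *Cspg4*, whose populations overlapped. Of the lymphatic markers, *Prox1*, which specifies lymphatic endothelium, had values from −6.16 to −4.39 in the 4 libraries, and *Ccl21a* was blank in all of them. The part of endothelial or mural cells in the lower *Kdr* and *Flt1* values was not tested.

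*Vegfc* is given beside macrophage markers, which lay on the same side. Of 14 macrophage markers, all with a value in every library, 9 were higher in both PDGFRα reporter+ libraries, compared with 7.59% of all genes, and 0 were lower, compared with 8.10%. The median log2 fold change of the list was 0.99. Without the block 0 of 14 were called, and 5 had an unadjusted p under 0.05, compared with 0.909% of all genes. With the block 2 were called, *Tyrobp* and *C1qb*, compared with 0.201% of all genes, and with the block and no trend their adjusted p in limma was 0.466 and 0.463. The 9 also included *Adgre1*, *Cd68*, *Lyz2*, *Mrc1*, *C1qa* and *C1qc*, and, chosen after its values were seen, *Aif1*. *C1qb*, a chain of the complement protein C1q, had log2 values of 2.04 and 1.76 compared with 0.23 and 0.62, and *Tyrobp*, a signaling adaptor of myeloid receptors, had 3.05 and 3.45 compared with 1.88 and 2.61. The linear values of the 14 markers summed to log2 values of 7.96 and 8.20 in the PDGFRα reporter+ libraries and of 6.64 and 7.55 in the PDGFRα reporter- libraries. Such a sum weighs genes by their deposited values, and whether these were scaled by length is not known. On the deposited scale most of this sum in every library came from *Lyz2*, the gene of lysozyme, with values of 7.65 and 7.88 compared with 6.27 and 7.25. *Ptprc*, the gene of CD45, had −1.28 and −0.39 compared with −2.30 and −1.22. *Csf1r*, the receptor that macrophages need to survive, had 1.079 and 1.605 compared with −0.109 and 1.131. Over the 14 markers, the difference between populations ran from −0.12 to 2.50 under number 2 and was at least 0.275 under number 3. Of these markers, 13 were higher in PDGFRα reporter+ cells under both numbers, compared with 3182 of 14415 genes of the whole table. In the trended model with population and library number, 7 of the 14 were called higher in number 3 than in number 2, and 0 lower. Over all genes these counts were 1654 and 1411 of 14415, and *Vegfc* was not called (0.18). The part of macrophages in the *Vegfc* difference was not tested.

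**Figure D3:**
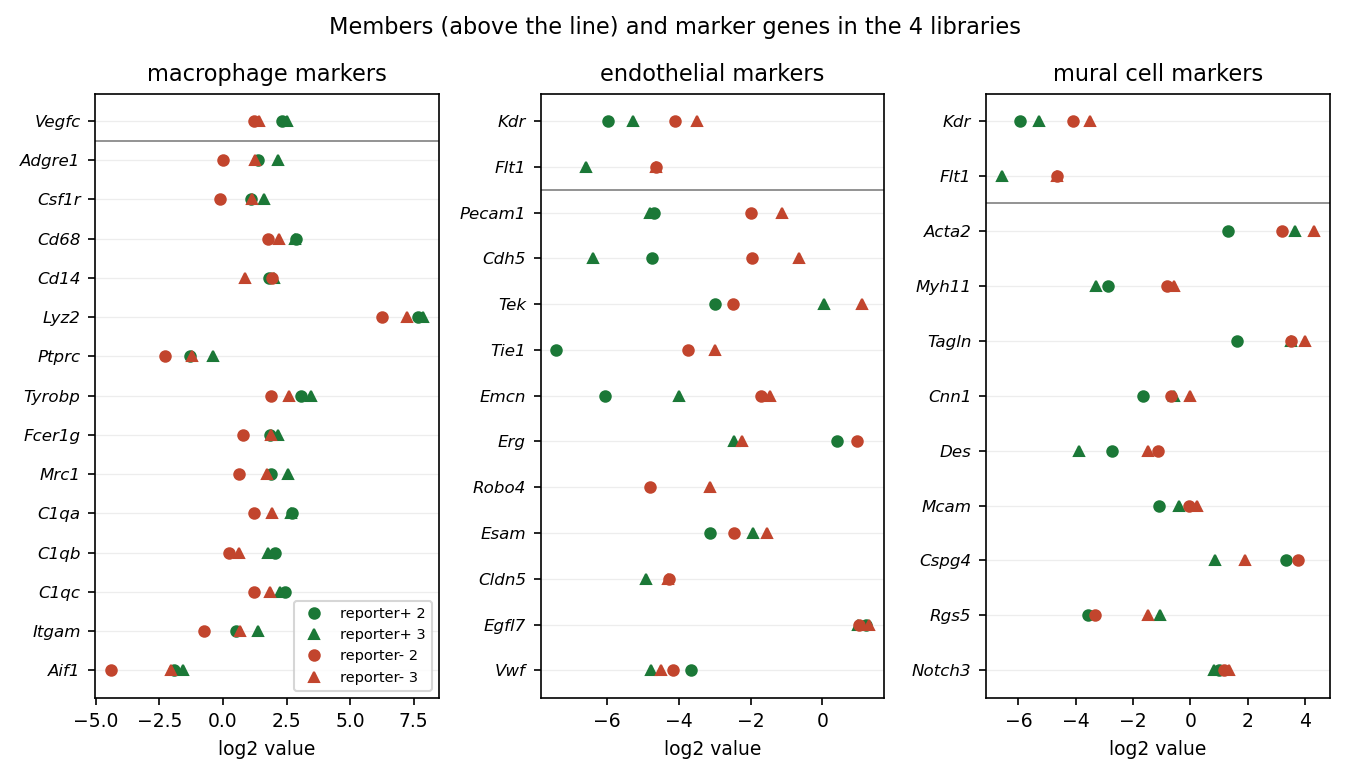
Log2 values (x axis) of *Vegfc* beside 14 macrophage markers, and of *Kdr* and *Flt1* beside 11 endothelial and 9 mural cell markers (y axis, members above the grey line), with 1 point per library in green for PDGFRα reporter+ and red for PDGFRα reporter-, circles for number 2 and triangles for number 3; blanks have no point. *Pecam1* and *Cdh5* are separated as *Kdr* is, and *Lyz2* lies at 7.65 and 7.88 in PDGFRα reporter+ against 6.27 and 7.25 in PDGFRα reporter- libraries.

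Genes around the VEGF system were taken from lists by role. No gene in them was called without the block or with it. Their counts of genes higher or lower in both PDGFRα reporter+ libraries stand beside 7.59% and 8.10% of all genes, and counts of 1 or 2 genes in a list are close to those shares or too few to set against them. Of 7 genes for VEGF-D and for the activation of VEGF-C and VEGF-D, 1 was higher in both PDGFRα reporter+ libraries and 0 were lower, with a median log2 fold change of 0.07. That gene was *Adamts3*, a protease that cleaves the VEGF-C precursor, with values of 0.22 and 1.10 compared with −0.08 and −0.39, and its log2 fold change was 0.89 (SE 0.41). *Pcsk5*, a proprotein convertase, chosen after its values were seen, overlapped between populations. It differed by 0.79 under number 2 and by 1.36 under number 3, a log2 fold change of 1.08 (95% interval −1.97 to 4.13). With the library number as a block, the interval was 0.63 to 1.52 and the adjusted p in limma 0.0837, or 0.535 without the trend. *Vegfd*, the ligand most like VEGF-C, had values of 4.35 and 4.33 compared with 4.28 and 4.92, a log2 fold change of −0.26 (SE 0.25), and was chosen after its values were seen. *Ccbe1*, which helps *Adamts3* to process VEGF-C, had 3.20 and 2.08 compared with 3.28 and 1.85, a split by number like that of *Nrp2*, and was also chosen after its values were seen.

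Of 12 class 3 semaphorins and plexins, which share the neuropilins with VEGF, 1 was higher and 1 was lower in both PDGFRα reporter+ libraries. The lower one was *Sema3c*, with values of 3.84 and 4.13 compared with 4.41 and 4.46, and its log2 fold change was −0.45 (SE 0.16). The higher one was *Sema3g*, near the bottom of the scale, with −3.44 and −5.03 compared with −5.59 and −6.63, and was chosen after its values were seen.

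Of 18 genes that carry VEGF receptor signals or move the receptors inside the cell, 16 had a value in all libraries, of which 2 were higher and 2 were lower. The higher ones were *Dab2*, an endocytic adaptor (4.36 and 4.18 compared with 4.10 and 3.60), and *Efnb2*, the gene of ephrin-B2 (1.40 and 1.36 compared with 1.11 and 1.29). The lower ones were *Gipc1*, a neuropilin-binding adaptor (3.55 and 3.48 compared with 3.57 and 3.72), and *Nos3*, the endothelial nitric oxide synthase (−6.56 and −5.86 compared with −4.43 and −4.01). *Nos3* was chosen after its values were seen. The median log2 fold change of the list was −0.01.

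The list of angiopoietins held 4 genes, *Angpt1*, *Angpt2* and *Angpt4* and the angiopoietin-like *Angptl4*, which is no ligand of the angiopoietin receptor. Of these, only *Angptl4* was higher in both PDGFRα reporter+ libraries and only *Angpt2* was lower. *Angptl4*, a secreted inhibitor of lipoprotein lipase, had values of 6.04 and 6.64 compared with 5.01 and 5.99, a log2 fold change of 0.84 (SE 0.41). *Angpt2*, which counters angiopoietin 1 at its receptor, had −3.67 and −2.87 compared with −1.34 and −0.92, a log2 fold change of −2.14 (SE 0.53), and was chosen after its values were seen. Of 14 regulators and targets of hypoxia-inducible factors, of which *Vegfa* is a known target, 0 were higher in both PDGFRα reporter+ libraries and 0 were lower, with a median log2 fold change of 0.14. *Car9*, a carbonic anhydrase chosen after its values were seen, overlapped between populations and was higher in PDGFRα reporter+ cells under each number, by 0.93 and 1.76.

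**Figure D4:**
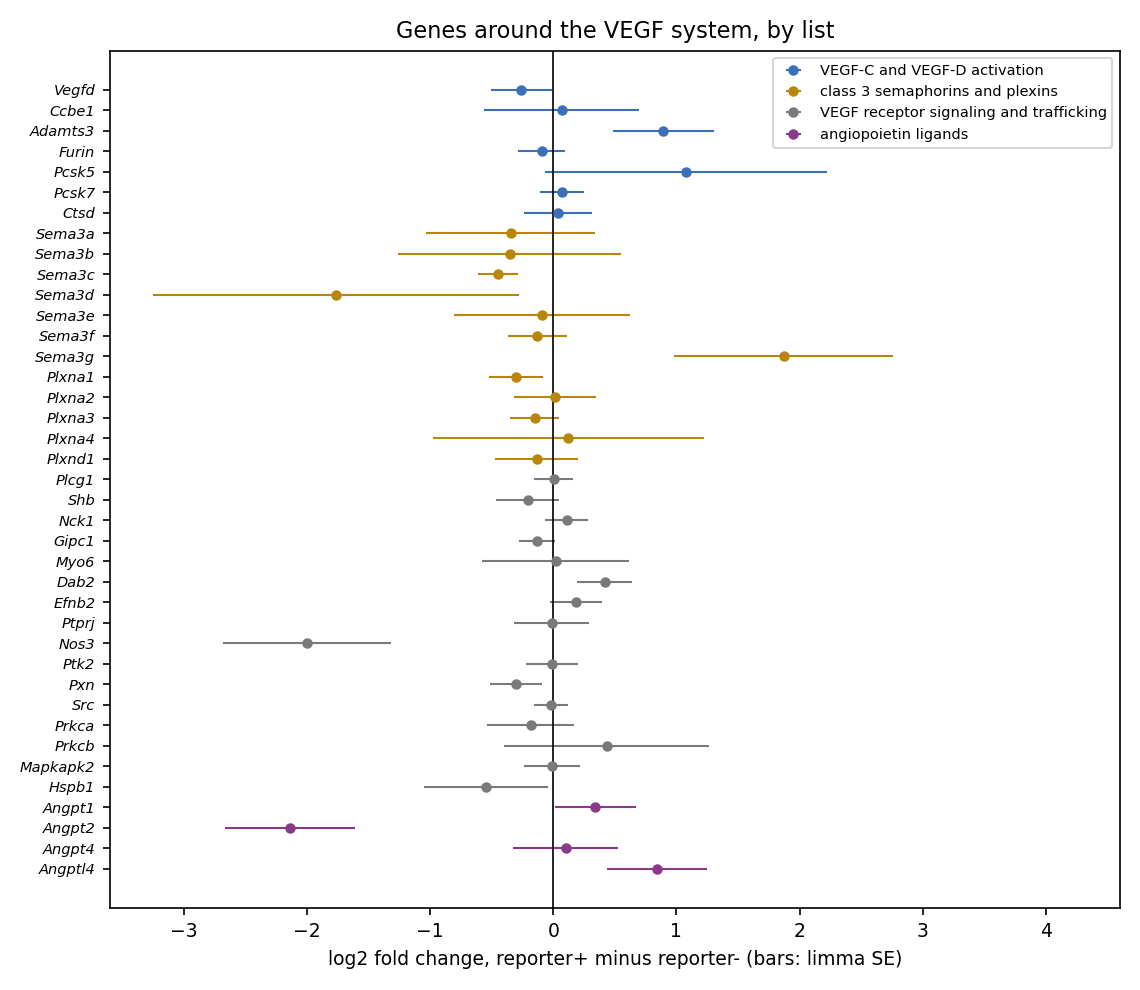
Log2 fold change between PDGFRα reporter+ and PDGFRα reporter- cells (x axis) with its limma SE (bars) for the genes of 4 lists with a value in all libraries (y axis, colored by list). *Adamts3*, *Sema3g* and *Angptl4* lie to the right of 0, and *Sema3c*, *Nos3* and *Angpt2* to the left, beside many genes near 0.

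Across the 4 libraries, the genes with the pattern most like that of *Vegfc* were *Fap*, *Wnt16* and *Cyp7b1*. Likeness was the Euclidean distance between log2 values centered on the mean of each gene, over 10223 other genes with a mean of at least 0, and was 0.11 for *Fap*, 0.25 for *Wnt16* and 0.26 for *Cyp7b1*. *Fap*, the gene of fibroblast activation protein, had values of 3.17 and 3.48 in the PDGFRα reporter+ and of 2.19 and 2.34 in the PDGFRα reporter- libraries. *Wnt16*, a Wnt ligand, had 1.95 and 2.42 compared with 1.01 and 1.34. The study also singled out *Fap* and *Wnt16* from these libraries. For *Vegfb*, the nearest genes were *Hist2h2ac*, *Rgs12* and *Spryd4*, at distances of 0.03, 0.04 and 0.04, all with PDGFRα reporter- library 3 above the other 3 libraries. With 4 libraries, many genes share such a pattern, and these names are a description only.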

How the data were processed

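Total RNA of 4 libraries was measured, 2 of PDGFRα reporter+ and 2 of PDGFRα reporter- periosteal cells. The authors deposited quantile-normalized log2 values, 1 per gene symbol and library, with blanks where no signal was listed. The submitters' processing notes name bcl2fastq 2.17.1.14, Partek 7.0 and the build GRCm38.p6, while the aligner, the counting and the gene annotation are not given in the sources used here. Equal quantiles were checked in the table, with quartiles that differed by at most 2.5e-05 between libraries. Quantile normalization fixes the range of each library, so that a change shared by most genes would not be seen.

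The test was two-sided, without a block, by lmFit and trended eBayes of limma 3.58.1 (R 4.3.3), over the 14415 genes that no library left blank, with Benjamini-Hochberg adjustment over all of them and a threshold of 0.05. With 2 libraries against 2, an exact permutation test of 1 gene cannot go below p = 0.333, and none was used. The fit, without and with the block, was run on values drawn with known changes but with no effect of the library number. That run cannot show how either fit behaves where libraries share such an effect. Alternatives were the library number as a block, no trend, a pseudocount of 1, a mean of at least 0, blanks at the lowest value, median-centered libraries and leaving out each library. Lists and plots used Python 3.11.15, pandas 2.3.3, numpy 2.4.6 and matplotlib 3.10.9. Positions are from GENCODE M21 and promoters from RefSeq, with all 9 symbols matched in both. Named genes are the members, list genes called or not overlapping between populations at a mean of at least 0, 8 defining markers and, for members that do not overlap at such a mean, the 3 nearest genes. Any other gene was named after its values were seen. The members and lists were chosen with earlier results of these data known. All 4 value columns were used.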

Additional observations from a re-analysis of the deposited data

How the results depend on the processing

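With the replicate block on the library number, the count of called genes went from 0 to 29 of 14415 (beside 131 and 913 at an unadjusted p under 0.05) and the count of called members from 0 to 1, *Vegfc*, whose log2 fold change of 1.09 then had an adjusted p of 0.0437 in limma. With the block and no trend, 0 genes were called, beside 941 at an unadjusted p under 0.05. The number pairs libraries only by its place in the table headings: over 14415 genes, same-numbered libraries had deviations from their population means that correlated at 0.681. Without the trend, the difference between numbers was the same for *Nrp1* (0.94) and *Nrp2* (−0.92) but no longer called, in an alternative chosen after seeing the data. Leaving out 1 library at a time changed the sign of 4 members: *Vegfa* without PDGFRα reporter- library 2 (−0.12), *Flt4* without PDGFRα reporter+ library 2 (−0.34), *Nrp1* without PDGFRα reporter+ library 3 (−0.29) or PDGFRα reporter- library 2 (−0.35), and *Nrp2* without PDGFRα reporter+ library 2 (−0.44) or PDGFRα reporter- library 3 (−0.35). The cause was not tested. The log2 fold change ranged from −0.12 to 0.37 for *Vegfa*, from −0.34 to 0.59 for *Flt4*, from −0.35 to 0.65 for *Nrp1* and from −0.44 to 0.57 for *Nrp2*. It ranged from 0.99 to 1.18 for *Vegfc*, from −2.16 to −1.48 for *Kdr*, from 0.09 to 0.65 for *Pgf* and from −0.45 to −0.01 for *Vegfb*. Among the other settings, only the pseudocount and the median centering can move a log2 fold change, and under them 16 of 16 values of the 8 members kept their direction. Size did not hold for the low genes: with a pseudocount of 1 the log2 fold change was 0.08 for *Pgf*, 0.05 for *Flt4* and −0.07 for *Kdr*. Depth is unknown, so that the values of *Kdr* and *Flt1* near the bottom of the scale carry a counting error that cannot be given.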
